A study of Mus musculus with 8 samples.

Results

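The comparison described here set trained mice that received a knockdown vector against Acss2 beside trained mice that received a control vector. Its members were the 4 libraries of trained mice, of 8 in all: eGFP.250 and eGFP.266 (control) and KD.249 and KD.251 (knockdown), named after the final part of their column names. The tissue was dorsal hippocampus, taken from C57BL/6J males 10 to 12 weeks old, 3 weeks after an adeno-associated virus had been injected there. The knockdown virus (AAV2/9.U6.shACSS2.CMV.EGFP) made a short hairpin RNA from the U6 promoter and EGFP from the CMV promoter, and the control virus (AAV2/9.CMV.EGFP.polyA) made EGFP with no hairpin cassette. Lower Acss2, the presence of a hairpin and the U6 cassette therefore cannot be told apart. All 4 libraries came from mice given 3 trials of 6 min, 3 min apart, in an arena that held 3 objects, and killed 30 min after training. The labels name no cell type that the vector was restricted to, nor do they state how many mice went into each library, so the p-values reflect variation among libraries that may be technical. The other 4 libraries came from home-cage mice with the same vectors (eGFP.254, eGFP.268, KD.253 and KD.255), and they entered only the shared estimate of the spread and the test of whether the vector effect differed with training.

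ACSS2 joins acetate to coenzyme A, and the acetyl-CoA it makes is used for histone acetylation and lipid synthesis. Type I interferons are cytokines that cells release after sensing viral or other foreign nucleic acid. They bind a receptor on the same or neighbouring cells and activate transcription factors that bind a promoter element, the interferon-stimulated response element, and switch on genes that block viral replication and present antigen. In the brain microglia and astrocytes are strong responders, and neurons respond as well.

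Reads in genes numbered 8275160 in eGFP.250, 9402422 in eGFP.266 and 8541894 in KD.249, but only 1484318 in KD.251. Values are normalized read counts, that is reads divided by 1 size factor per library, and 1 read was worth 2.88 of them in KD.251 against 0.478 to 0.517 in the others. Hippocampal markers were present in every library: the summed level of 20 pyramidal neuron markers was 7689 and 8909 in the controls and 7677 and 9499 in the knockdown libraries. Library eGFP.250 stood apart from the other 3. Its 18 choroid plexus markers summed to 62904 normalized counts, against 797 in eGFP.266, 325 in KD.249 and 2103 in KD.251. Its 13 pituitary markers summed to 2058, against 0 to 4.61 elsewhere, and its 13 meningeal and fibroblast markers to 3025, against 498, 258 and 297. Of 8 nuclear-retained RNAs, 7 were lower in knockdown by their mean (median log2 difference -0.38, and -0.16 without eGFP.250). In tissue RNA, fewer cells of a type and less RNA per cell cannot be told apart.

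Acss2, a protein-coding gene on the plus strand of chromosome 2 (155517948 to 155585724, GRCm38), was measured at 87.4 normalized counts in eGFP.250 and 67.5 in eGFP.266. It was 25.6 in KD.249 (50 reads) and 57.7 in KD.251 (20 reads). Both knockdown libraries thus lay below both controls, KD.249 far below and KD.251 just below. The means were 77.4 ± 14.1 (SD, n = 2) and 41.6 ± 22.7 (SD, n = 2), a ratio of 0.538. Its log2 difference, -0.98 (SE 0.47), missed the threshold over all genes (limma adjusted p = 1.00, edgeR adjusted p = 0.861), and so did that of -1.55 (SE 0.50) without KD.251 (limma adjusted p = 1.00).

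Genes of the antiviral interferon response were the leading difference, and they were higher with the knockdown vector. With limma on log2(normalized count + 1), over the 12681 genes that averaged at least 10 in the 8 libraries, 1 gene rose at an adjusted p under 0.05 (0.00789% of those tested) and none fell (0%). The gene was Ccl5. An unadjusted p under 0.05 was reached by 129 higher genes (1.02%) and 170 lower genes (1.34%). On the recovered reads edgeR called 4 genes higher (0.0315%), namely Ccl5, Ifit3, Rsad2 and Irf7, and none lower (0%), while DESeq2 called 31 higher (0.244%) and 2 lower (0.0158%). Ccl5, Rsad2 and Irf7 were under 10 in every control library, so they passed the filter only through the knockdown libraries. The counts depended on single libraries. Without KD.251, limma called 11 genes higher (0.0867%) and edgeR 94 higher (0.741%) and 6 lower (0.0473%), with KD.249 as the lone trained knockdown library and its spread taken from the other groups. All 11 were members of the interferon lists, among them Irf7, Ifitm3, Ifit2, Ifit3, Ifit3b, Iigp1, Gbp3, Gbp7, Eif2ak2 and Parp14. Of the 94, 60 were in those lists, which hold 96 of the 12681 tested genes, and for 79 the value in KD.251 was above both controls too, as it was for 4521 of all tested genes. Without eGFP.250, or without KD.249, limma called no gene (79 and 369 genes at an unadjusted p under 0.05), while edgeR without eGFP.250 still called 1.

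Interferon signalling begins with sensors and transcription factors. Irf7, the factor that amplifies interferon production (chromosome 7, 141262706 to 141266481, minus strand), was at 5.69 and 6.22 in the controls, 186 in KD.249 and 34.6 in KD.251. The knockdown values did not overlap the controls, and KD.249 was far above KD.251. Irf7 rose by edgeR (log2 difference 4.32, adjusted p = 0.0474) but not by limma (3.56, SE 0.69, adjusted p = 1.00). Irf9, a DNA-binding factor downstream of the interferon receptor, stood at 69.8 and 64.1 in the controls, 259 in KD.249 and 95.2 in KD.251. The RNA sensor Ifih1 stood at 36.2 and 24.4 against 210 and 43.3, and the endosomal RNA receptor Tlr3 at 95.7 and 75.6 against 137 and 133. In Irf9, Ifih1 and Tlr3 the groups did not overlap, but only in Tlr3 were the knockdown libraries alike. Of 23 tested members of the list of sensors and interferon signalling, 20 were higher by their mean log2 value (all genes: 49.3%) and 11 had both knockdown libraries above both controls (all genes: 14.4%). Its median log2 difference was 0.64, against 0.00 over all tested genes. Of the 19 members that averaged at least 10 in the control libraries alone, 16 were higher, 8 of them without overlap, and the median was 0.56. Of the interferon genes themselves only Ifnb1 and Ifng were looked at, and both were near 0. Ifnb1 had 1 read, in KD.249, and Ifng 1 read, in KD.251. Other interferon genes were not looked at.

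Antiviral effectors followed the same order of libraries. Ifit3, which forms complexes with other Ifit proteins (chromosome 19, 34583531 to 34588731, plus strand), was at 21.7 in eGFP.250, 51.2 in eGFP.266, 1023 in KD.249 and 268.3 in KD.251. It rose by edgeR (4.18, adjusted p = 0.0474) and missed the threshold by limma (3.93, SE 0.58, adjusted p = 0.485). Rsad2, the radical SAM enzyme viperin (chromosome 12, 26442746 to 26456452, minus strand), was at 3.10 and 8.13 in the controls and at 165 and 57.7 in the knockdown libraries, and it too rose by edgeR alone of these 2 tests (4.36, adjusted p = 0.0474). Ifit1 stood at 10.3 and 27.3 against 703 and 124. Oasl2, of the oligoadenylate synthetase family, stood at 19.1 and 35.4 against 872 and 144. Ddx60, a helicase, stood at 3.62 and 11.0 against 193 and 49.0. All 40 tested members of the list were higher by their mean log2 value (all genes: 49.3%). In 32 the groups did not overlap (all genes: 14.4%), and the median log2 difference was 2.37. The filter on low values let some members in through the knockdown libraries: 25 of the 40 averaged at least 10 in the control libraries alone, and of these all 25 were higher, 19 without overlap, with a median of 1.57. Ifit3 and Ifit3b are near-identical copies, and some of the Slfn genes resemble each other closely, so the split of reads among such copies is uncertain.

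The promoter windows of the leading genes are shown because the members that moved together can be compared for the sequence that interferon-activated factors are known to bind. The windows run from 250 bases before to 50 after the annotated start (RefSeq, GRCm38.p6), and capitals mark matches to GAAANNGAAA, the core of the interferon-stimulated response element, searched on both strands with no other motif.
Ifit3, chr19:34583279-34583578, plus strand: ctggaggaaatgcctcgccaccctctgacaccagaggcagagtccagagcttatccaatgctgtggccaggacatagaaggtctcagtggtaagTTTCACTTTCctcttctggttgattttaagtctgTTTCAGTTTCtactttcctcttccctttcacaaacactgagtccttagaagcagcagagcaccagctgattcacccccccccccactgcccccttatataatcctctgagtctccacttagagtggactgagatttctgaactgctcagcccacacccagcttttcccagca
Rsad2, chr12:26456403-26456702, minus strand: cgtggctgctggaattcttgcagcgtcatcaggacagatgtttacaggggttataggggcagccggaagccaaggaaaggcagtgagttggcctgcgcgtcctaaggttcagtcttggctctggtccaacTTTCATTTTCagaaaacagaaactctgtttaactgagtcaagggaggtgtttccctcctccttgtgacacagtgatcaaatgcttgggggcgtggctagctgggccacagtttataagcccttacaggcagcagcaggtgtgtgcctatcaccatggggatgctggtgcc
Gbp7, chr3:142530086-142530385, plus strand: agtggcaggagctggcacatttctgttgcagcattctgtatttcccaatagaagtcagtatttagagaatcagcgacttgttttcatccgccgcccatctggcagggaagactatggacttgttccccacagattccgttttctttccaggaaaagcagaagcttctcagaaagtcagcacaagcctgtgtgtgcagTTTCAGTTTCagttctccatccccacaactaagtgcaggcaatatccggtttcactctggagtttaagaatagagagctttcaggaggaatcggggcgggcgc
Irf7, chr7:141266375-141266674, minus strand: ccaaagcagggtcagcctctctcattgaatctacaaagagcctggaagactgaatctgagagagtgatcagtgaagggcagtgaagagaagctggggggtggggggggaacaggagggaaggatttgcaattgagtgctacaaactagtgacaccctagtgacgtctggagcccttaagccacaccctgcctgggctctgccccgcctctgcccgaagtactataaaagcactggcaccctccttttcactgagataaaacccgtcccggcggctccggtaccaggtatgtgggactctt
Ifit3 held 2 matches, at 156 and 122 bases before the start; Rsad2 held 1 at 120 bases and Gbp7 1 at 53 bases before it, while the Irf7 window held none. Among the 15 higher genes with the smallest p, 14 had a window in the table and 9 of them (64.3%) held the motif. Among the 15 leading lower genes, 11 had a window and none held it (0%). The motif was in the windows of 3.99% of 27025 RefSeq genes and of 3.68% of the 9762 tested genes that had a window. A match describes letters in the window and does not show binding.

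Interferon-induced GTPases are large proteins that attack the vacuoles of intracellular pathogens. Of 14 tested members 13 were higher (all genes: 49.3%), 11 of them without overlap (all genes: 14.4%). The median log2 difference was 1.98, and the 10 members that averaged at least 10 in the control libraries alone were all higher, 9 without overlap, with the same median. Gbp7 stood at 60.5 and 55.0 in the controls, 515 in KD.249 and 136 in KD.251 (2.18, SE 0.53). Irgm1 stood at 42.9 and 29.7 against 280 and 80.8. The widest gap between the knockdown libraries among the members named was in Iigp1, at 8.27 and 22.96 in the controls, 441 in KD.249 and only 28.8 in KD.251. By limma no member passed, and by DESeq2 4 did. All 9 members with a promoter window held the motif above, against 15 of 30 antiviral effectors, 4 of 16 class I genes and 3 of 19 genes of sensors and signalling.

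**Figure D1:**
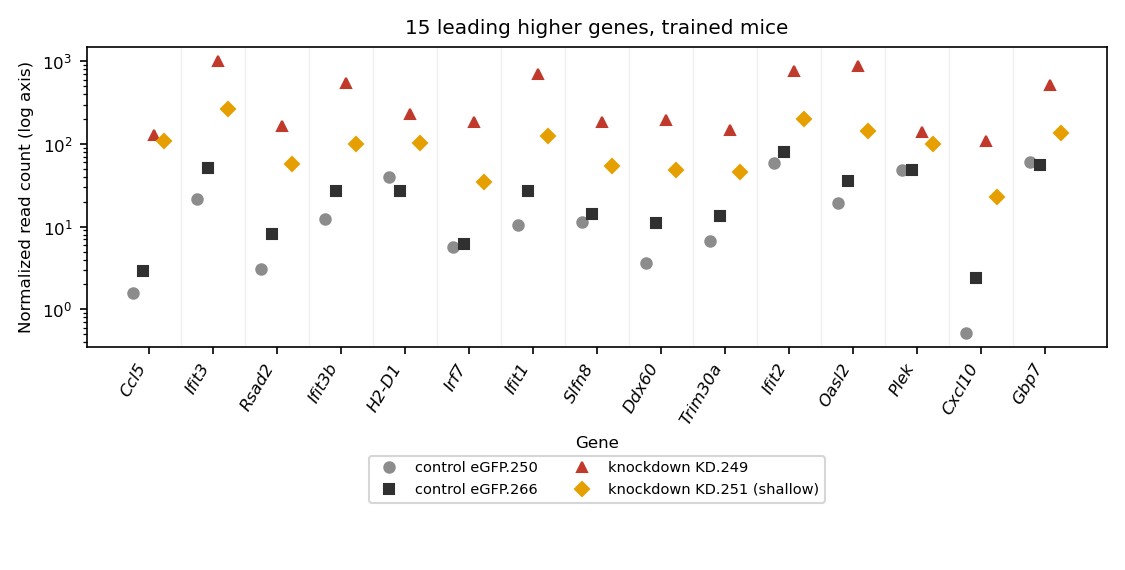
Normalized read counts (log axis) of the 15 higher genes with the smallest limma p, 1 point per trained library (2 control, 2 knockdown). By the naming rule both knockdown libraries lie above both controls in each gene, and KD.249 lies above KD.251, with the smallest gap between them in Ccl5 (129 and 110).

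Class I antigen presentation displays peptides on the cell surface for CD8 T cells. H2-D1, a class I heavy chain, was at 40.3 and 27.3 in the controls and at 232 and 104 in the knockdown libraries (2.19, SE 0.42, limma adjusted p = 1.00, edgeR adjusted p = 0.0589). B2m, the light chain that all class I molecules share, was at 289 and 491 against 2675 and 638. H2-K1 was at 66.7 and 72.7 against 641 and 112, and Psmb8, a subunit of the immunoproteasome that cuts the peptides, at 13.4 and 6.70 against 93.1 and 26.0. Of 19 tested members 14 were higher (all genes: 49.3%) and 12 did not overlap (all genes: 14.4%), with a median log2 difference of 1.41. Of the 14 that averaged at least 10 in the control libraries alone, 9 were higher, 8 of them without overlap, and the median was 0.74. Reads of the class I heavy chains can be shared between near-identical copies. Of the 4 tested members of class II presentation, which professional antigen-presenting cells use, 2 were higher and 2 lower. Cd74, the class II invariant chain, was at 27.4 and 10.0 in the controls, 93.1 in KD.249 and 5.77 (2 reads) in KD.251, so that the groups overlapped.

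Ccl5, a chemokine that attracts T cells and monocytes (chromosome 11, 83525778 to 83530518, minus strand), was the gene that passed limma. It was at 1.55 in eGFP.250 (3 reads), 2.87 in eGFP.266 (6 reads), 129 in KD.249 (252 reads) and 110 in KD.251 (38 reads). It was nearly as high in KD.251 as in KD.249. Its log2 difference was 5.25 (SE 0.54, limma adjusted p = 0.0499, edgeR adjusted p = 3.6e-04). The limma call stood at the threshold: it was lost in 11 of 21 alternatives, among them leaving out any of the 4 trained libraries (adjusted p from 0.0917 without KD.251 to 1.00 without KD.249), while the difference stayed between 4.95 and 5.55 in those 4 fits. Cxcl10, an interferon-induced chemokine, was at 0.517 and 2.39 in the controls, 107 in KD.249 and 23.1 in KD.251 (8 reads). Cxcl9, a related one, was at 52.2 in KD.249 and had no read in KD.251, which allows up to 8.65.

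T cells, which make Ccl5, were looked for with 20 marker genes, none of which averaged 10 and so none was tested. Their reads summed to 37 and 32 in the controls, 177 in KD.249 and 6 in KD.251. In normalized counts the sums were 19.1, 15.3, 90.6 and 17.3, so KD.249 stood above the controls and KD.251 between them. Cd3g had 29 reads in KD.249 and Cd8a 17, or 14.8 and 8.70 normalized counts. Neither had a read in KD.251, which allows up to 8.65, so for Cd8a a level like that in KD.249 was near the limit of detection there. The part of T cells in the Ccl5 level was not tested. The 13 markers of blood monocytes and granulocytes summed to 67.7 and 56.0 in the controls, 155 in KD.249 and 49.0 in KD.251.

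The spread between the knockdown libraries ran through the interferon response as a whole. Of the 96 tested genes of the interferon lists (antiviral effectors, sensors and signalling, GTPases and class I presentation), KD.249 lay above both controls in 90 and KD.251 in 66, against 4138 and 4521 of all 12681 tested genes. The median log2 difference from the control mean was 2.78 in KD.249 and 0.55 in KD.251, and 92 of the 96 genes were higher in KD.249. Over all tested genes these medians were -0.01 and 0.01, and 6323 genes were higher in KD.249. Of the 96 genes, 68 averaged at least 10 in the control libraries alone, and of these 60 were higher and 8 lower, with a median difference between the groups of 1.41. The library with the higher interferon genes, KD.249, also had the lower Acss2 value (25.6 against 57.7). The home-cage knockdown libraries had the other order. Acss2 was at 25.0 in KD.253 and at 15.6, the worth of 1 read, in KD.255. The medians of antiviral effectors relative to the trained controls were 3.07 in KD.253 and 2.54 in KD.255. The part of read depth and of the Acss2 level in the spread between the knockdown libraries was not tested.

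**Figure D2:**
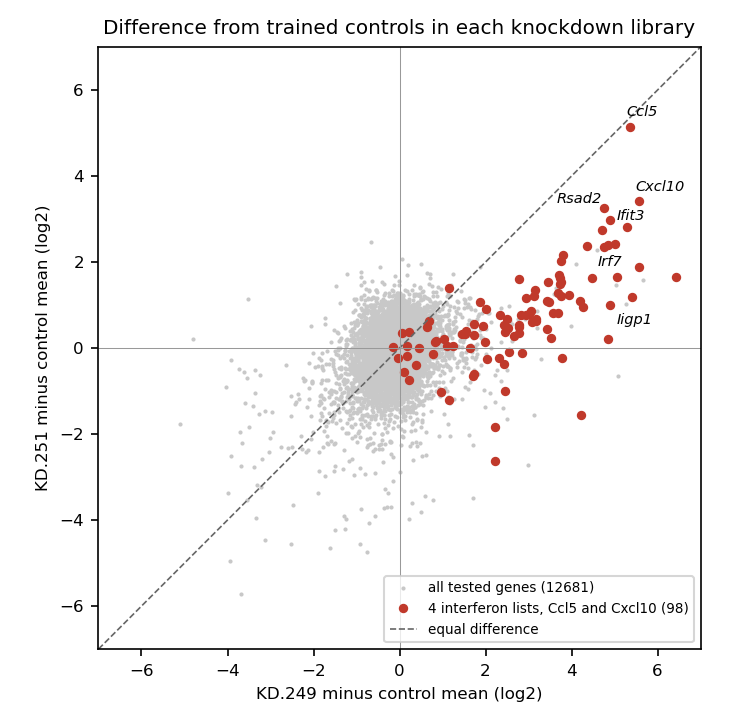
Log2 difference of each tested gene from the mean of the 2 trained controls in KD.249 (x axis) and KD.251 (y axis), with the 98 genes of the 4 interferon lists, Ccl5 and Cxcl10 in red and equal differences on the dashed line. Most red points lie right of 0 and below the line, and Ccl5 lies near it.

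Glial genes followed with smaller differences. Complement proteins tag debris and synapses for removal. C4b was at 85.8 and 130 in the controls against 975 and 193, C3 at 33.6 and 25.4 against 246 and 51.9, and C1qa, a chain of the complement initiator made by microglia, at 23.8 and 18.2 against 81.4 and 37.5. Of 10 tested complement genes 7 were higher (all genes: 49.3%), 5 of them without overlap (all genes: 14.4%). The median log2 difference was 0.85, or 1.33 without KD.251 and 0.17 without KD.249. Cd59a and Cd55, which shield cells from complement, were the 2 that lay lower without overlap. Cd59a was at 275 in eGFP.250, 57.4 in eGFP.266, 38.9 in KD.249 and 26.0 in KD.251, so that eGFP.250 stood far above the rest. None of these passed limma or edgeR.

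Microglial marker genes lay slightly higher with the knockdown vector. All 21 were higher by their mean log2 value (49.3% of all genes), 14 without overlap (14.4% of all genes), with a median of 0.51. Their summed level was 2083 and 1948 in the controls, 4026 in KD.249 and 2648 in KD.251. Ctss, a lysosomal protease and a large part of this sum, was at 367 and 379 against 1294 and 594 (1.23, SE 0.35). Aif1, the calcium-binding protein Iba1, was at 27.9 and 22.96 against 79.8 and 40.4. Plek, or pleckstrin, a protein kinase C substrate of platelets and leukocytes, was at 48.6 and 47.8 against 141 and 101 (1.29, SE 0.29). None of them passed limma or edgeR, and Ctss passed DESeq2.

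Reactive astrocyte genes were less uniform. Serpina3n, a secreted protease inhibitor, was at 132 and 173 in the controls against 428 and 291 (1.22, SE 0.34). Osmr, the oncostatin M receptor, was at 34.1 and 42.1 against 95.7 and 69.2. The filament proteins Gfap and Vim were high in KD.249 only: Gfap was at 1797 and 2264 in the controls, 5387 in KD.249 and 2282 in KD.251, and Vim at 237 and 236 against 732 and 291. Of 13 tested members 10 were higher (all genes: 49.3%), 6 without overlap (all genes: 14.4%), and the median was 0.27. The 16 general astrocyte markers had a median of -0.09, and 1 of them was higher and 2 lower without overlap (all genes: 14.4% and 14.8%).

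**Figure D3:**
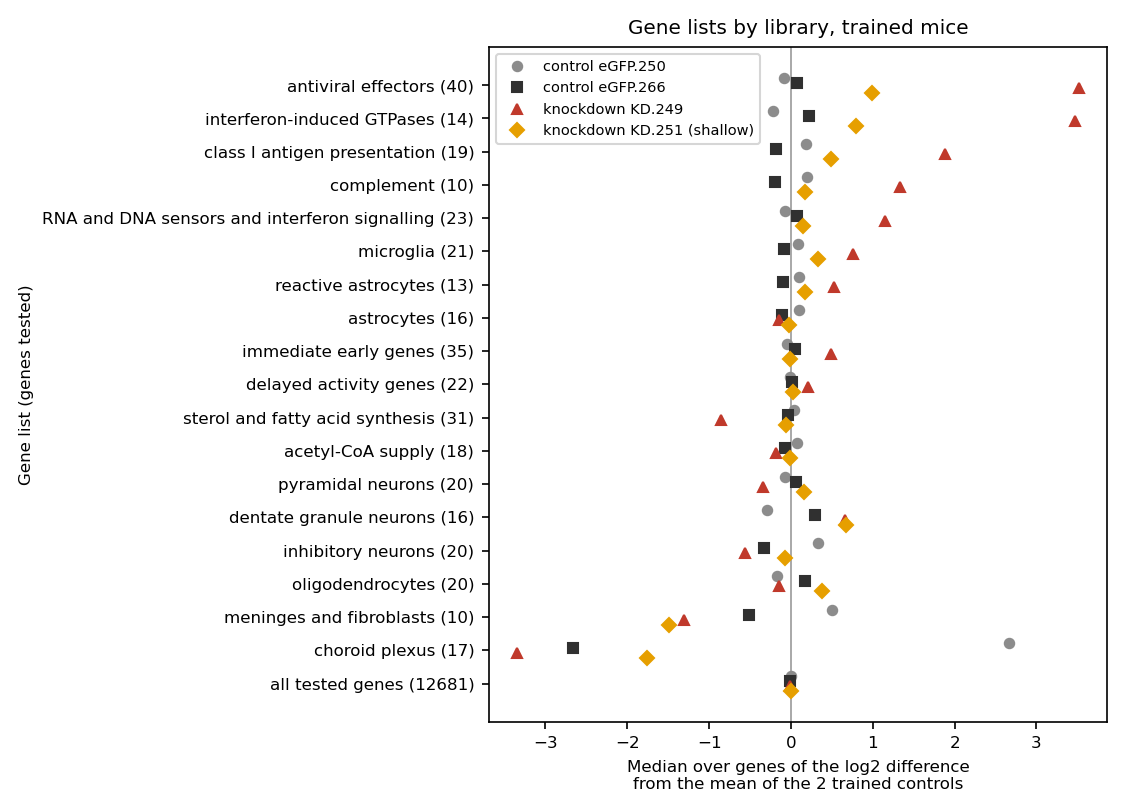
Median over the tested genes of each list of the log2 difference from the mean of the 2 trained controls, 1 point per trained library. The interferon lists are farthest from 0 in KD.249 (3.52 for antiviral effectors) and nearer in KD.251 (0.99), whereas dentate granule markers are alike in both (0.66 and 0.67) and choroid plexus markers separate eGFP.250 from the rest.

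The study's question was how ACSS2 bears on memory-related transcription, and training is known to induce immediate early genes within minutes. In trained mice the values of most of these genes overlapped between the vectors (27 of 35 tested, against 8981 of all 12681 tested genes). Fos, a transcription factor subunit, was at 131 and 103 in the controls and at 139 and 107 in the knockdown libraries. Egr1, a zinc finger factor, was at 1919 and 2126 against 2835 and 2019. Arc, which acts at synapses and in receptor traffic, was at 951 and 1103 against 1467 and 1062. Npas4, a factor that shapes inhibition, was at 78.6 and 84.7 against 118 and 86.5, higher in both but by less than the span between the knockdown libraries. The log2 difference of Npas4, 0.31 (SE 0.28), was the largest of these 4. Of 35 tested immediate early genes, 27 were higher by their mean (all genes: 49.3%). Without overlap 6 were higher and 2 lower (all genes: 14.4% and 14.8%), and no member passed limma, edgeR or DESeq2. The median of 0.24 came from KD.249 (0.49), whereas KD.251 was at -0.02.

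**Figure D4:**
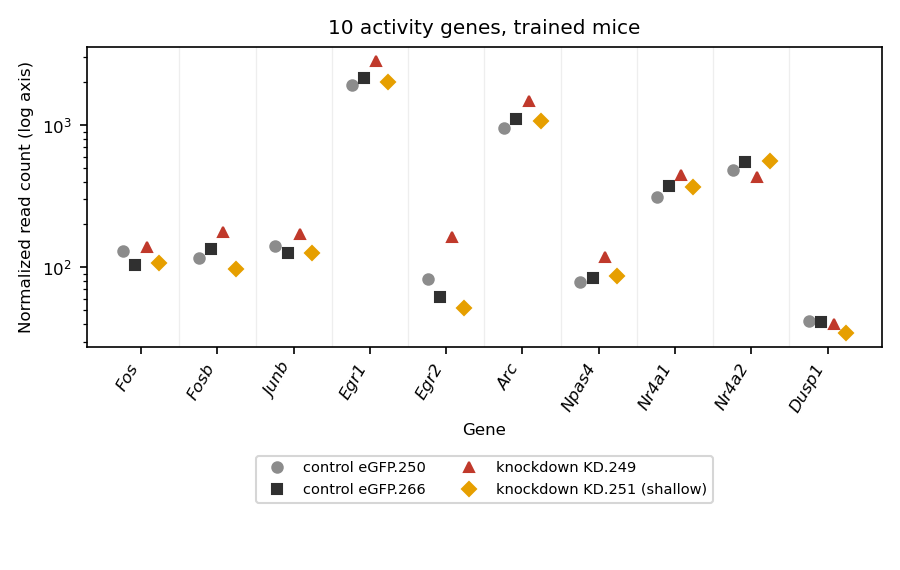
Normalized read counts (log axis) of 10 activity-regulated genes in the 4 trained libraries, 2 per vector. For most genes the control and knockdown points overlap, as for Fos (131 and 103 against 139 and 107).

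A few activity genes were higher in both knockdown libraries to a like extent. Ptgs2, the inducible cyclooxygenase, was at 109 and 114 in the controls and at 220 and 288 with knockdown (1.17, SE 0.38). Bdnf, a neurotrophin, was at 188 and 254.5 against 334 and 340 (0.62, SE 0.22). Homer1, a synaptic scaffold with an activity-induced short form, was at 720 and 941 against 1174 and 1347 (0.61, SE 0.22), and Egr3 at 699 and 614 against 895 and 975 (0.51, SE 0.21). In each of these genes KD.251 was above KD.249. None passed limma or edgeR (edgeR adjusted p of 0.369 or more). The list of 22 delayed activity genes had a median of 0.09, with 12 higher and 10 lower.

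Dentate granule cell markers were higher with the knockdown vector by value. Of 16 tested markers 15 were higher by their mean (all genes: 49.3%) and 10 without overlap (all genes: 14.4%), and the list median was 0.70. Rfx3, a transcription factor, was at 342 and 454 in the controls and at 595 and 707 with knockdown (0.72, SE 0.26). Stxbp6, a SNARE-binding protein, was at 539 and 621 against 954 and 1142 (0.85, SE 0.35). Prox1, the defining transcription factor of granule cells, was at 330 and 750 against 957 and 793. Lct, lactase, was at 131 and 265.98 against 319 and 464. The list median was 0.66 in KD.249 and 0.67 in KD.251, but it also separated the controls, at -0.29 in eGFP.250 and 0.29 in eGFP.266, and it was 0.33 without eGFP.250. No marker passed limma or edgeR. The 20 pyramidal neuron markers had a median of 0.00 with 10 higher and 10 lower. Whether the share of dentate tissue in the dissections bears on Bdnf, Ptgs2 or Homer1 was not tested.

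Lower values with the knockdown vector were found in sterol and fatty acid synthesis, a use of acetyl-CoA, with KD.249 well below KD.251. Of 31 tested genes 28 were lower by their mean (all genes: 50.7%) and 11 without overlap (all genes: 14.8%), and the median log2 difference was -0.47. Fdft1, squalene synthase, was at 381 and 422 in the controls, 195 in KD.249 and 291 in KD.251 (-0.75, SE 0.25). Scd1, a fatty acid desaturase, was at 1166 and 1026 against 512 and 938. Hmgcs1, an early enzyme of the pathway, was at 936 and 939 against 389 in KD.249 and 903 in KD.251. The median was -0.85 in KD.249 and -0.06 in KD.251. No gene of the list passed limma, edgeR or DESeq2. Without KD.251, edgeR called Msmo1, a sterol oxidase (579 and 449 in the controls, 169 in KD.249), but KD.251 had it at 560.

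Other enzymes of acetyl-CoA supply showed small differences. Of 18 tested genes 15 were lower by their mean (all genes: 50.7%), 5 without overlap (all genes: 14.8%). The median was -0.12, with Acss2 the member of smallest p. The citrate carrier Slc25a1, which brings acetyl units out of mitochondria, was at 70.8 and 62.2 in the controls against 34.3 and 46.2. Acly, which splits that citrate into acetyl-CoA, was at 370 and 409 against 329 and 372. Histone acetyltransferases and bromodomain readers had a median of 0.09 over 18 genes, with 2 higher and 2 lower without overlap (all genes: 14.4% and 14.8%). Histone deacetylases had a median of -0.13 over 17. Small RNA processing genes, whose products also handle hairpin RNAs, had a median of 0.06 over 16 genes. Of these, 3 were higher and 1 lower without overlap (all genes: 14.4% and 14.8%).

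Several genes with known roles in neurons were among those lower with the knockdown vector by value, and none passed limma or edgeR. Rhov, a small GTPase, was at 45.5 and 25.8 in the controls, 2.56 in KD.249 (5 reads) and 2.88 in KD.251 (1 read), and Nnat, an imprinted membrane protein of neurons, at 3162 and 1834 against 1204 and 531. These were the 2 genes that DESeq2 called lower. Gap43, a growth cone protein, was at 1346 and 582 against 275 and 271. Tubb3, a neuronal tubulin outside the 15 leading genes, was at 357 and 361 against 250 and 216. The list of 28 neurite and adhesion genes, which holds Gap43, had a median of -0.04, with 11 higher and 17 lower. Without overlap, 4 of them were higher and 7 lower (all genes: 14.4% and 14.8%). Of the leading genes, Cacna1g, a T-type calcium channel, was at 217 and 185 against 102 and 107, and Slc6a7, a proline transporter, at 233 and 208 against 87.0 and 107 (-1.18, SE 0.24). The other leading genes were Pdzrn3, Prrg3, Plekha7, Palm3, Dnm3, Ankrd24, Bex1, Slc5a5, Meis2 and Fgf11, and the 15 log2 differences ran from -3.25 to -0.79. KD.249 was above KD.251 in 8 of the 15. In 14 of the 15, eGFP.250, the library with the choroid plexus, pituitary and meningeal RNA, was above eGFP.266 (6464 of all 12681 tested genes). Their median log2 difference was -1.24 with eGFP.250 and -1.09 without it, and their direction is fixed by the way they were chosen.

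**Figure D5:**
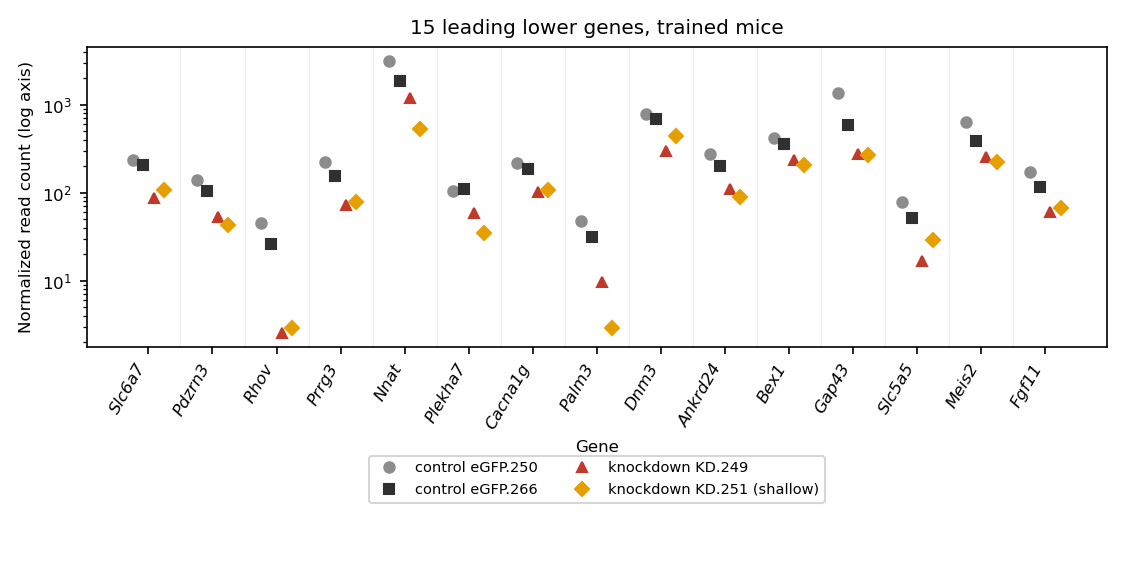
Normalized read counts (log axis) of the 15 lower genes with the smallest limma p, 1 point per trained library (2 control, 2 knockdown). Both knockdown libraries lie below both controls by the naming rule, and eGFP.250 is above eGFP.266 in 14 of the 15.

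Markers of the meninges, choroid plexus, striatum, neocortex and interneurons were lower beside them by value (groups below the controls without overlap in 14.8% of all genes). The 10 tested meningeal and fibroblast genes were all lower, 8 of them without overlap, with a median of -1.32, or -0.70 without eGFP.250. Igf2, a growth factor of the meninges and choroid plexus, was at 2286 in eGFP.250, 216 in eGFP.266, 103 in KD.249 and 141 in KD.251. The 17 choroid plexus genes had a median of -2.45, which became 0.14 without eGFP.250. Inhibitory neuron markers had a median of -0.33 over 20 genes, with 18 lower and 6 without overlap, and -0.09 without eGFP.250. Markers of the striatum had a median of -0.37 over 9 genes, with 7 lower and 2 without overlap, and -0.06 without eGFP.250. Markers of the neocortex had a median of -0.28 over 13 genes, with 11 lower and 6 without overlap, and it was -0.29 without eGFP.250. These 3 lists lay lower mostly in KD.249. Their medians in KD.249 and KD.251 were -0.56 and -0.07 (inhibitory neurons), -0.39 and -0.10 (striatum) and -0.57 and -0.11 (neocortex). Thalamus and habenula markers were mixed: of 13 genes 9 were lower, 3 without overlap, and 4 higher, 2 without overlap. Their median was -0.16, or 0.23 without eGFP.250. Ependyma markers had a median of -0.20 over 8 genes, with 5 lower, 3 higher and none without overlap, and 0.45 without eGFP.250. Sp9, a transcription factor of interneurons and of striatal neurons, was at 66.2 and 34.9 against 20.5 and 11.5. The part of this RNA from other tissue in the lower neuronal genes was not tested.

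The 6 genes that edgeR called lower without KD.251 rested on KD.249 as the lone trained knockdown library. Besides Msmo1 they were Nts, Gpr101, Nxph3, Slc17a6 and Vwc2l, named after their values were seen. Nts, the neuropeptide neurotensin, was at 51.7 and 58.8 in the controls and at 1.02 in KD.249, but at 63.5 in KD.251. Slc17a6, the vesicular glutamate transporter of thalamic and other subcortical neurons, was at 102 and 144 against 8.19 in KD.249 and 86.5 in KD.251. In Msmo1, Nts and Gpr101 the value in KD.251 was within or above the range of the controls.

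Whether the vector effect differed between trained and home-cage mice was tested as an interaction. No gene passed limma (0%), edgeR or DESeq2, and 112 genes had an unadjusted p under 0.05 by limma. All 15 leading higher genes were also higher in home-cage mice, as were 5676 of all 12681 tested genes. Their median log2 difference was 4.18 there, against 3.63 in trained mice. Ccl5 in home-cage mice was at 5.23 and 3.10 in the controls, 107 in KD.253 and 109 in KD.255. The value in KD.255 rests on few reads: this library had only 272456 reads in genes, and 1 read was worth 15.6 normalized counts. Of the 15 leading lower genes 13 were lower in home-cage mice (5676 of all 12681 tested genes were higher there), with a median of -0.42 (all tested genes: -0.05). The home-cage control eGFP.254 also carried RNA of other tissue. Its choroid plexus markers summed to 16300, against 299 in eGFP.268, 523 in KD.253 and 684 in KD.255. Its meningeal and fibroblast markers summed to 1365, against 625, 411 and 451. The part of this RNA in the home-cage values was not tested. The smallest interaction p belonged to Egr2, a zinc finger factor induced by activity (-2.71, SE 0.77, limma adjusted p = 1.00). In trained mice it was at 82.7 and 61.7 in the controls and at 164 and 51.9 with knockdown, and in home-cage mice at 11.6 and 7.54 in the controls and at 68.5 and 109 with knockdown. Fos had the same order (-2.08, SE 0.61). The differing values were thus those of the home-cage controls, which were low, while the trained groups overlapped. The home-cage value of 109 for Egr2 rests on 7 reads in KD.255. Rhov had a log2 difference of -3.25 in trained and 0.41 in home-cage mice, where it was at 19.8 and 25.7 in the controls, 14.5 in KD.253 and 62.2 (4 reads) in KD.255. The home-cage sign thus rests on KD.255, and KD.253 lay below both controls. Pdzrn3, a ubiquitin ligase, had log2 differences of -1.32 and 0.09, and the interactions of both genes (-3.66, SE 1.08, and -1.41, SE 0.42) did not pass either. Dentate granule markers had a median log2 difference of -0.49 in home-cage mice, and none of them passed for the interaction. Relative to the trained controls, their median was 0.62 and 0.43 in the home-cage controls, 0.46 in KD.253 and -0.25 in the shallow KD.255, so that KD.253 lay between the controls and KD.255 below them.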

How the data were processed

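Polyadenylated RNA was sequenced (ScriptSeq v2 libraries, NextSeq 500, per the labels' protocols) in 8 libraries, 2 in each of 4 groups of vector and training. Software listed per the submitters' processing notes comprised bcl2fastq 02.14.01.07, STAR 2.3.0, HTSeq 0.6.1, DESeq and bedtools, with mm10 as the genome build; which annotation and which strand setting were used is not given in the sources used here. Deposited by the authors was a table of normalized signal, 1 value per gene and library: in 100% of values (relative tolerance 1e-06) they were whole multiples of 1 value per library, so they were read as counts of reads divided by a size factor, and the reads were recovered. The 5 summary entries of the counter (34.5% to 39.5% of reads) were left out, which left 24498 genes, of which 6476 had no read in the 4 trained libraries.

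The main test was limma 3.58.1 (R 4.3.3) with an intensity trend on log2(value + 1), for 12681 genes with a mean of at least 10, with the 4 groups in 1 fit (4 residual degrees of freedom, 5.13 from the prior), two-sided, with Benjamini-Hochberg adjustment over all genes tested and a threshold of 0.05. Fold changes on this scale understate the change of low genes. edgeR 4.0.16 (quasi-likelihood, TMM) and DESeq2 1.42.0 were run on the recovered reads; under edgeR, 4 genes passed. The design expected normalized values, so limma was kept as the main test. The fits were tested on simulated data. Sampling noise did not account for the difference between libraries of 1 group (chi-square per degree of freedom 36.0 in trained control and 10.2 in trained knockdown), and each counted as 1 sample. The floor for a gene with no read is 3 reads, or 8.65 normalized counts in KD.251 and at most 1.55 in the other trained libraries, and covers counting error only, since reads carry no molecular identifiers.

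The comparison and the 42 gene lists were chosen with earlier results of these data known. Named were Acss2, the 15 higher and 15 lower genes of smallest limma p whose groups did not overlap, each gene passing limma or edgeR, up to 5 members of a described list by p together with its defining members, 10 activity genes, and the 5 genes of smallest interaction p in each direction. Gene positions are from GENCODE vM21 (GRCm38). The alternatives were the pseudocount, the filter, the test, the libraries in the fit and quality weights; 3 that leave out KD.251 or eGFP.250 were added after seeing the data. A few genes are not reported here.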

Additional observations from a re-analysis of the deposited data

How the results depend on the processing

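The limma count of 1 gene passing became 0 with a pseudocount of 0.5, with no filter, with a mean of at least 50, with the 4 trained libraries alone, and without KD.251 and eGFP.250 together. It was 4 by edgeR, 33 by DESeq2, 79 without KD.251 and KD.255, and 100 by edgeR without KD.251, which with edgeR without eGFP.250 (1) was added after seeing the data. Leaving out each of the 8 libraries in turn gave 0 to 11 genes. Ccl5 passed in 10 of 21 alternatives. The test of the difference between trained and home-cage mice called 0 genes in every alternative but one: leaving out each library in turn gave 0 to 710, and 710 came without KD.253, when the shallow KD.255 alone stood for its group and its spread was taken from the others. Acss2 stayed lower in all 21 alternatives (log2 difference from -1.58 to -0.41) and passed in none (smallest adjusted p = 0.226). The median of antiviral effectors, 2.37, was between 0.99 (without KD.249) and 3.52 (without KD.251) when a library was left out, and 3.68 by edgeR without KD.251. The median of immediate early genes, 0.24, went from -0.017 (without KD.249) to 0.49 (without KD.251). The median of sterol genes, -0.47, went from -0.85 (without KD.251) to -0.064 (without KD.249), and was -0.88 by edgeR without KD.251. Of 71 genes tried, Fos changed sign without eGFP.266 (-0.10) or KD.249 (-0.12; from -0.12 to 0.25 when a library was left out), Egr1 without KD.249 (-5.1e-04), and the others kept theirs. Where a group was left with 1 library, that library was assumed to vary like the other groups. The cause of these changes was not tested. The depth of KD.251 (1 read is 2.88 normalized counts) limits genes with few reads. No paired analysis was possible because the columns carry no replicate number of the labels.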

Other observations

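Several further gene groups had medians near 0 in trained mice, and no member of them passed limma or edgeR with all libraries. Of all tested genes, 14.4% had both knockdown libraries above both controls and 14.8% had both below. Nuclear-encoded respiratory chain genes had a median log2 difference of -0.10 over 32 genes, with 24 lower and 6 of them without overlap, and cytosolic ribosomal protein genes 0.04 over 36. Presynaptic vesicle cycle genes had a median of -0.15 over 28 genes, 21 of them lower and 4 without overlap, postsynaptic density genes -0.03 over 24 and glutamate receptor genes 0.12 over 26. Oligodendrocyte markers had a median of 0.02 over 20 genes and endothelial and mural markers -0.09 over 17. Unfolded protein and heat shock genes had a median of -0.10 over 21 genes.

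Of 14 tested targets of p53, the transcription factor that responds to DNA damage, 6 were higher without overlap (all genes: 14.4%). None was lower without overlap (all genes: 14.8%), and the median was 0.14. Cdkn1a, a cell cycle inhibitor, was at 36.2 and 24.9 in the controls, 90.6 in KD.249 and 37.5 in KD.251. Sesn1, a stress-induced regulator of metabolism, was at 143 and 168 against 206 and 225, and Mdm2, which degrades p53, at 373 and 381 against 473 and 424.

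Genes with an unadjusted p under 0.05 were counted in the lists of interferon, antigen presentation, chemokine, complement, microglia and reactive astrocyte genes, 9 lists with 156 tested genes. Of the 129 higher genes 57 were in these lists (44.2% of the higher genes and 36.5% of the lists), and of the 170 lower genes 1 was, Cd59a. Over all tested genes 1.02% were higher and 1.34% lower at this p. Some list members passed the filter only through the knockdown libraries. Of the 96 tested genes of the interferon lists, 68 averaged at least 10 in the control libraries alone. The lists were also chosen with earlier results of these data known, so these shares are a description and not a test.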
